A study of Danio rerio with 11 samples.

Results

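Neutrophil marker genes were followed in livers of zebrafish larvae that overexpress human UHRF1 in hepatocytes, and compared gene by gene and clutch by clutch with livers of WT siblings. The set holds 10 genes (mpx, lyz, mmp9, mmp13a, csf3r, npsn, cebpe, ncf1, lect2l and nccrp1), picked by name as known markers of zebrafish neutrophils. Names were matched in any case to the 26269 named IDs among 32105 gene IDs. A gene ID was found for 7 of the 10, which are lyz, mmp9, mmp13a, csf3r, npsn, ncf1 and nccrp1. No ID carried the name mpx, cebpe or lect2l, so these 3 genes are named only, and IDs with related names are given separately. Of the 7, 6 passed the filter on low counts and were tested, and ncf1 did not pass it.

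RNA-seq was carried out on 11 pools of dissected livers at 120 hpf (5 dpf). The 5 hUHRF1 pools came from EGFP-positive larvae of the line Tg(fabp10a:hUHRF1-EGFP)high, in which the hepatocyte promoter of fabp10a drives human UHRF1 fused to EGFP, and they represent clutches 4, 6, 7, 8 and 9. The 6 WT pools were siblings from clutches 4 to 9, which makes 5 pairs, as clutch 5 has no hUHRF1 pool. The hUHRF1 pools held 30 livers, except 27 in clutch 6, and each WT pool held 20 livers. Because every library was made from a pool, p-values measure the spread between pools and not between animals.

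Neutrophils are short-lived phagocytes that leave hematopoietic tissue for sites of infection, wounding or tissue damage, where they act through granule proteins, proteases and a burst of reactive oxygen. In zebrafish larvae they are functional within days of fertilization, circulate and patrol tissues, and enter the liver when hepatocytes are injured or express an oncogene. In a whole liver they are few, so their transcripts are measured against a large excess of hepatocyte RNA. In such bulk samples fewer or more neutrophils and less or more RNA per neutrophil cannot be told apart.

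Total counts ranged from 9064943 to 19370497 in hUHRF1 pools and from 15285359 to 23322479 in WT pools. The scaling factors of the libraries (TMM, which corrects for a few abundant genes taking up the reads) were 1.12 to 1.71 in hUHRF1 and 0.672 to 0.978 in WT pools and did not overlap. Values are given as CPM, counts scaled to a common library size with these factors, and 1 count was worth 0.0304 to 0.0974 CPM. The liver label was checked with hepatocyte markers, whose summed level was 36020 to 83920 CPM in hUHRF1 and 116800 to 196600 CPM in WT pools. Of 9 tested markers 8 were called lower in hUHRF1, beside 14.6% of all tested genes. Sample titles follow one wording in clutches 4 to 6 and another in clutches 7 to 9, so the L2FC of each tested neutrophil gene is also given within these groups of clutches.

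None of the tested neutrophil genes passed the test between hUHRF1 and WT livers. The 6 tested genes had log2 fold changes (L2FC, hUHRF1 over WT) between −0.78 for mmp13a and 0.70 for lyz, with edgeR adjusted p-values from 0.343 to 0.748. The count at an unadjusted p under 0.05 was also 0, with a smallest p of 0.206 in edgeR's quasi-likelihood test. DESeq2, which returned values for all 7 matched genes, likewise called 0, none of them at an unadjusted p under 0.05, where it called 26.6% of all genes. Among all 15838 tested genes 29.1% were called in either direction, 14.5% higher and 14.6% lower in hUHRF1. The fit with a replicate block for clutch called 35.1% of all genes, and in clutches 4 to 6 or 7 to 9 alone, 10.4% and 16.4% were called, with 0 neutrophil genes in all 3 fits. Scaling by library size only, which called 55.9% of all genes, was the exception with 1, mmp9. The median L2FC of the 6 genes was 0.27, beside 0.05 over all tested genes. An L2FC above 0 was found for 5 of the 6 genes and for 52.5% of all genes. The hUHRF1 pools alone passed lyz, csf3r and npsn through the count filter, and the WT pools alone would not have. That favours an L2FC above 0 for these genes, so the tally is a description only. All these counts come from a short list, and the 95% intervals below show how large a change each gene could still hold.

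**Figure D1:**
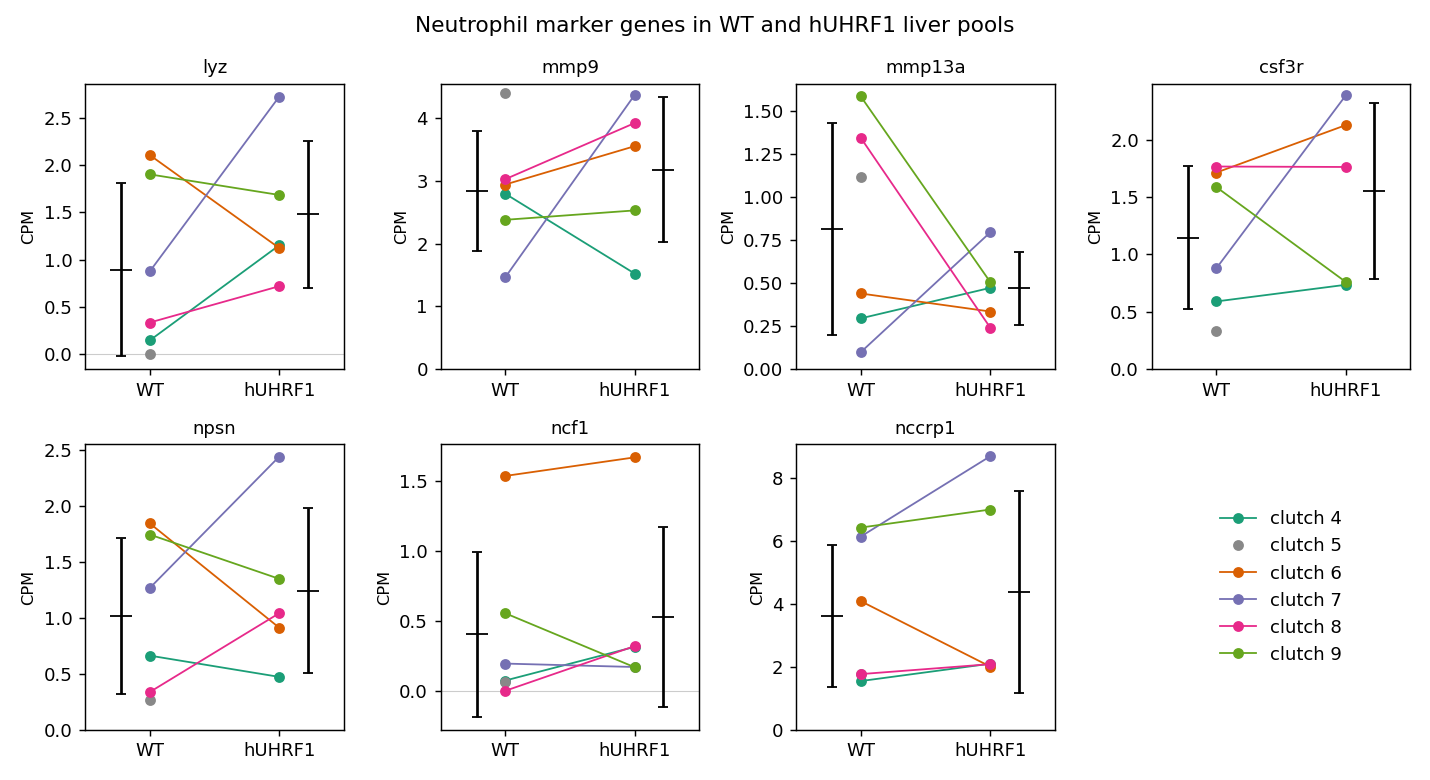
CPM of the 7 matched neutrophil genes in each liver pool, with 1 panel per gene, WT on the left and hUHRF1 on the right, points coloured by clutch and lines joining the pools of a clutch. Bars give the mean and SD of 6 WT or 5 hUHRF1 pools. The pools of both conditions overlap for every gene, and the lines run in both directions.

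The receptor of granulocyte colony-stimulating factor, csf3r, receives the main signal for granulocyte production and survival. Its level in hUHRF1 pools was 0.734 CPM in clutch 4, 2.13 in clutch 6, 2.39 in clutch 7, 1.76 in clutch 8 and 0.758 in clutch 9, and in WT pools it ran from 0.329 to 1.77 CPM with a median of 1.23. The highest 3 of the 11 pools included a WT pool, and the conditions overlapped. The mean was 1.55 ± 0.77 CPM in hUHRF1 (SD, n = 5) and 1.14 ± 0.62 CPM in WT (SD, n = 6). This gave an L2FC of 0.45 (SE 0.48, 95% interval −0.58 to 1.47), with an edgeR adjusted p of 0.514. Within clutches csf3r was higher in the hUHRF1 pool in 3 of 5 pairs, by 0.27, 0.29 and 1.33 on the log2 scale, and lower by 0.96 in clutch 9. In clutches 4 to 6 alone the L2FC was 0.66, and in clutches 7 to 9 alone it was 0.20.

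Its ligands had few counts. The ligand gene csf3a had 4, 30, 5, 19 and 15 counts in the hUHRF1 pools of clutches 4, 6, 7, 8 and 9 and 6 to 31 counts in WT pools. The levels overlapped, with an L2FC of −0.25 (SE 0.63, edgeR adjusted p = 0.799). The second ligand gene, csf3b, had 4 counts in 1 hUHRF1 pool and 6 and 2 counts in 2 WT pools, and 0 in the other pools, so that it was not detectable in most of them at this depth. Of the wider list of neutrophil chemokines and their receptors, 5 IDs were tested, and 1 was higher, beside 14.5% of all tested genes. It was the ID named CXCL12 that stands for a ligand holding neutrophils in hematopoietic tissue (L2FC 1.35, SE 0.46, edgeR adjusted p = 0.0409). This call was lost in 7 of the 11 fits without 1 pool, those without the hUHRF1 pools of clutches 4 and 7 and the WT pools of clutches 4, 6, 7, 8 and 9, with the lowest L2FC, 0.73, without hUHRF1 clutch 7 (edgeR adjusted p = 0.186). DESeq2 called 3 IDs of this list higher, beside 13.1% of all genes. The list holds 11 IDs, and DESeq2 did not give all of them an adjusted p. Among those called were cxcl12b (adjusted p = 0.039, against 0.057 in edgeR) and an ID named CXCR4 (ENSDARG00000041959, adjusted p = 0.0015), the receptor of CXCL12, which did not pass edgeR's filter. This CXCR4 ID had 14, 39, 53, 2 and 20 counts in the hUHRF1 pools of clutches 4, 6, 7, 8 and 9 and 1 to 6 counts in WT pools. The inflammatory chemokine cxcl8b.1, a neutrophil attractant, had an L2FC of 0.15 (edgeR adjusted p = 0.867).

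Lysozyme, encoded by lyz, cleaves the bacterial cell wall and marks neutrophils, and to a lesser degree macrophages, in zebrafish larvae. The hUHRF1 pools of clutches 4, 6, 7, 8 and 9 held 22, 37, 48, 9 and 20 lyz counts, or 1.15, 1.12, 2.73, 0.720 and 1.69 CPM. The WT pools held 2, 0, 48, 9, 4 and 24 counts in clutches 4 to 9, or 0 to 2.11 CPM with a median of 0.606. The count of 0 in the WT pool of clutch 5 allows a level of up to 0.197 CPM, taking 3 counts as the limit, which covers counting error only. All 5 hUHRF1 pools thus lay above the WT pools of clutches 4, 5 and 8, but the WT pools of clutches 6 and 9 exceeded 4 of them.

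With means of 1.48 ± 0.78 CPM in hUHRF1 (SD, n = 5) and 0.895 ± 0.91 CPM in WT (SD, n = 6), lyz had the highest L2FC of the set, 0.70 (SE 0.73, edgeR adjusted p = 0.503). The interval of −0.87 to 2.26 was the widest of the 6 genes and holds a decrease as well as a large increase. An exact permutation test over all 462 divisions of the pools, two-sided on log2 CPM, gave p = 0.162. The clutch pairs differed in direction, with 2.24, 1.51 and 0.88 more on the log2 scale in clutches 4, 7 and 8, and 0.84 and 0.16 less in clutches 6 and 9. The L2FC was 0.50 within clutches 4 to 6 and 0.71 within clutches 7 to 9. It fell to 0.35 without the hUHRF1 pool of clutch 7 and reached 1.19 without the WT pool of clutch 6, with edgeR adjusted p-values from 0.258 to 0.778 over the 11 fits that left out 1 pool.

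Nephrosin, encoded by npsn, is a secreted astacin-type metalloprotease of fish granulocytes. The hUHRF1 pools of clutches 4, 6, 7, 8 and 9 held 0.472, 0.911, 2.44, 1.04 and 1.35 CPM of npsn, and WT pools held 0.263 to 1.84 CPM with a median of 0.964. As with lyz, the hUHRF1 pools of clutches 7 and 9 and the WT pools of clutches 6 and 9 were the highest of their conditions, and the conditions overlapped. The L2FC was 0.27 (SE 0.55, 95% interval −0.91 to 1.44, edgeR adjusted p = 0.748), and npsn was higher in the hUHRF1 pool in only 2 of 5 pairs, with a median pair difference of −0.34. The direction turned without the hUHRF1 pool of clutch 7 (−0.14) and within clutches 4 to 6 (−0.45), against 0.53 within clutches 7 to 9.

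The granule peroxidase mpx, which makes hypochlorous acid and is the standard marker of zebrafish neutrophils, had no ID by that name. The related names epx and EPX, for the peroxidase known from eosinophils in mammals, were looked up instead after the names were seen and before their values were, and they are not used as mpx. The name alone does not show whether 1 of these IDs is the zebrafish mpx gene, which was not checked. The ID named EPX (ENSDARG00000019521) had 23, 71, 40, 9 and 21 counts in the hUHRF1 pools of clutches 4, 6, 7, 8 and 9 and 6, 4, 59, 2, 29 and 31 counts in the WT pools of clutches 4 to 9. WT pools were again split, with 3 at 29 counts or more and 3 at 6 or fewer. The means of 1.62 ± 0.65 CPM in hUHRF1 (SD, n = 5) and 1.40 ± 1.21 CPM in WT (SD, n = 6) were not told apart (L2FC 0.21, SE 0.62, edgeR adjusted p = 0.824).

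Gelatinase B, encoded by mmp9, digests denatured collagen and is stored in neutrophil granules, though epithelial cells and macrophages also make it during tissue repair. The hUHRF1 pools of clutches 4, 6, 7, 8 and 9 held 1.52, 3.55, 4.37, 3.92 and 2.53 CPM of mmp9, and the WT pools held 1.46 to 4.40 CPM with a median of 2.87. Both ranges were nearly the same, and the highest and the lowest of the 11 pools were WT pools. The L2FC of 0.16 had the smallest error of the set (SE 0.33, 95% interval −0.54 to 0.86, edgeR adjusted p = 0.748). Levels of mmp9 were higher in hUHRF1 in 4 of 5 pairs, a pattern shown by 38.1% of all tested genes, but by no more than 0.36 on the log2 scale outside clutch 7, where the difference was 1.51. The L2FC was −0.42 within clutches 4 to 6 and 0.64 within clutches 7 to 9.

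Collagenase 3, encoded by mmp13a, cleaves fibrillar collagen and was the only tested gene of the set with a negative L2FC. Its counts were 9, 11, 14, 3 and 6 in the hUHRF1 pools of clutches 4, 6, 7, 8 and 9 and 4, 17, 10, 1, 16 and 20 in the WT pools of clutches 4 to 9. In CPM the hUHRF1 pools ranged from 0.240 to 0.795 and the WT pools from 0.0974 to 1.59, so that the WT pools extended beyond the hUHRF1 pools on both sides. The L2FC was −0.78 (SE 0.59, 95% interval −2.04 to 0.48, edgeR adjusted p = 0.343), with lower levels in 3 of 5 pairs, and −0.64 and −0.97 within clutches 4 to 6 and 7 to 9. The epidermis markers that were listed as another source of such proteases summed to 172.4 to 482.9 CPM in hUHRF1 and 187.5 to 467 CPM in WT pools. Of 6 tested markers 1, cldni, was called higher, beside 14.5% of all tested genes. That call was lost with clutch as a replicate block and without the hUHRF1 pool of clutch 7 or 9 or the WT pool of clutch 5 or 7 (edgeR adjusted p = 0.06 to 0.156). Of the enzymes and inhibitors that act with these proteases, both IDs named MMP14, a membrane protease that activates other matrix proteases, were higher in every hUHRF1 pool than in every WT pool (L2FC 1.60 and 1.04, edgeR adjusted p = 0.000488 and 0.0114). Complete separation in this direction was found for 8.05% of all tested genes.

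The organizer of the phagocyte NADPH oxidase, ncf1 (p47phox), brings the cytosolic subunits to the membrane when the enzyme that makes superoxide is switched on. Its counts were 6, 55, 3, 4 and 2 in the hUHRF1 pools of clutches 4, 6, 7, 8 and 9 and 1, 1, 35, 2, 0 and 7 in the WT pools of clutches 4 to 9. Both pools of clutch 6 stood above all others, at 1.67 CPM in hUHRF1 and 1.54 CPM in WT, and the remaining 9 pools held 0 to 0.555 CPM. The 0 in the WT pool of clutch 8 allows up to 0.252 CPM. The mean of log2 CPM was 0.53 higher in hUHRF1, which did not pass a two-sided exact permutation test (p = 0.513), and ncf1 was higher in 3 of 5 pairs. Without the hUHRF1 pool of clutch 6 the difference was 0.07, and without the WT pool of clutch 6 it was 0.99 (exact permutation p = 0.19).

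Of the other subunits of the same oxidase that edgeR tested, cyba and rac2 were called higher in hUHRF1. The membrane subunit cyba (p22phox) held 30.9, 32.7, 39.2, 46.2 and 35.4 CPM in the hUHRF1 pools of clutches 4, 6, 7, 8 and 9 and 3.12 to 14.5 CPM in WT pools, without overlap, as for 8.05% of all tested genes. It was 2.03 higher on the log2 scale (SE 0.30, edgeR adjusted p = 0.000275), in 5 of 5 pairs, a pattern shown by 20.8% of all tested genes. The GTPase rac2, which activates the complex in blood cells, held 5.40 to 8.85 CPM in hUHRF1 and 1.68 to 4.14 CPM in WT pools, again without overlap (L2FC 1.11, SE 0.25, edgeR adjusted p = 0.005). The catalytic subunit cybb had an L2FC of 0.85 (SE 0.42, edgeR adjusted p = 0.151) and was highest at 4.22 CPM in the hUHRF1 pool of clutch 6, the pool with the highest ncf1. The subunit ncf4 stayed below edgeR's count filter, with 2 to 19 counts in hUHRF1 and 0 to 4 counts in WT pools. Its levels overlapped but were higher in hUHRF1 in 5 of 5 pairs. The two-sided exact permutation test gave p = 0.00433, and DESeq2 called ncf4 (adjusted p = 0.0134). Within clutches 4 to 6 the L2FC of cyba was 1.69 and that of rac2 0.83, the latter with an edgeR adjusted p of 0.135.

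The gene nccrp1, named for a receptor protein of fish nonspecific cytotoxic cells and used as a neutrophil marker in zebrafish, had the most counts of the set, 21 to 153 per pool. The hUHRF1 pools of clutches 4, 6, 7, 8 and 9 held 2.10, 2.00, 8.69, 2.08 and 6.99 CPM, and the WT pools of clutches 4 to 9 held 1.54, 1.77, 4.08, 6.14, 1.77 and 6.42 CPM. In both conditions the values fell into a low group between 1.54 and 2.10 CPM and a high group at 4.08 CPM or more, with 2 of 5 hUHRF1 pools and 3 of 6 WT pools in the latter. The L2FC was 0.27 (SE 0.52, 95% interval −0.83 to 1.37, edgeR adjusted p = 0.729). The hUHRF1 pool was higher in 4 of 5 pairs, but by at most 0.49 on the log2 scale, and it was lower by 0.98 in clutch 6. The L2FC was −0.30 within clutches 4 to 6 and 0.31 within clutches 7 to 9, and −0.16 without the hUHRF1 pool of clutch 7.

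**Figure D2:**
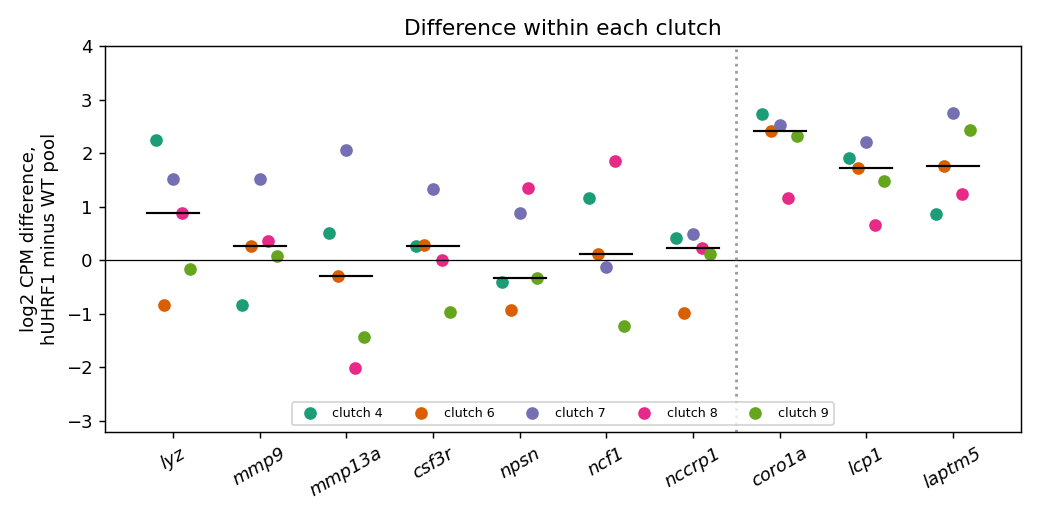
Difference in log2 CPM between the hUHRF1 and the WT pool of the same clutch, for the 7 matched neutrophil genes left of the dotted line and 3 pan-leukocyte genes right of it, with 1 point per clutch and a bar at the median. Points of each neutrophil gene lie on both sides of 0, with medians between −0.34 and 0.88. All points of coro1a, lcp1 and laptm5 lie above 0, the 3 of 5 pan-leukocyte genes with the smallest edgeR adjusted p-values. The others, ptprc and WAS, are not shown. They were higher in hUHRF1 in 4 of 5 pairs, with −0.16 for ptprc in clutch 8 and −0.19 for WAS in clutch 4.

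No neutrophil gene was higher in all 5 clutch pairs. In clutch 7 the hUHRF1 pool exceeded the WT pool for 6 of the 7 genes, with ncf1 0.12 lower. The same hUHRF1 pool had the highest level of lyz, mmp9, mmp13a, csf3r, npsn and nccrp1 among the hUHRF1 pools, and leaving it out gave the lowest L2FC of each of the 6 tested genes among the 11 fits that left out 1 pool. In clutch 6 the WT pool exceeded the hUHRF1 pool for lyz, mmp13a, npsn and nccrp1, by 0.30 to 0.98 on the log2 scale.

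Levels of lyz and npsn were set beside RNA of the exocrine pancreas, which lies against the liver. The 9 exocrine IDs, digestive proteases among them, summed to 2889, 1194, 7096, 2058 and 10280 CPM in the hUHRF1 pools of clutches 4, 6, 7, 8 and 9 and to 766.7, 615, 2519, 1391, 777.5 and 1840 CPM in the WT pools of clutches 4 to 9. Within each condition the 2 highest sums were those of clutches 7 and 9 in hUHRF1 and of clutches 6 and 9 in WT, which also had the 2 highest levels of lyz and of npsn in their condition. For nccrp1 this held in hUHRF1 but not in WT, where clutch 7 exceeded clutch 6. After subtracting condition means on the log2 scale, Pearson's r with the exocrine sum was 0.86 for nccrp1, 0.72 for lyz and 0.71 for npsn. It was −0.23 to 0.12 for the other matched genes. Other list sums also followed lyz, with an r of −0.81 for the erythroid markers. Each matched gene was compared with every list sum, and the exocrine list was not alone in high values. The r was 0.82 for mmp9 with the oxidase partners and 0.73 for mmp13a with the thrombocyte markers. For nccrp1 with the intestine markers it was 0.71. The hUHRF1 pool of clutch 4 had a higher exocrine sum than any WT pool. In all, 8 of the 9 exocrine IDs were called higher in hUHRF1, beside 14.5% of all tested genes. Without the hUHRF1 pool of clutch 7 this count was 5, and without that of clutch 9 it was 0. The shares of all tested genes called higher were then 12.5% and 12.3%. Without the 2 pools of each condition with the highest sums, a choice made after the data were seen, again 0 neutrophil genes were called, beside 21.3% of all genes. The L2FC of lyz was then 1.63 (edgeR adjusted p = 0.189), that of csf3r 0.78, that of npsn 0.36 and that of nccrp1 −0.45.

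The names cebpe and lect2l were not matched either. The transcription factor cebpe drives late granulocyte maturation, and cebp1, a fish gene of the same family expressed in granulocytes, was looked up in its place. It had 6, 20, 0, 1 and 1 counts in hUHRF1 and 0 to 2 counts in WT pools and was not tested. Of the granulocyte transcription factors listed, 7 were tested, 2 were higher and 1 was lower in hUHRF1, beside 14.5% and 14.6% of all tested genes. The ID named SPI1 (ENSDARG00000000767), for the PU.1 factor that directs precursors to myeloid fates, had 78, 283, 87, 31 and 42 counts in the hUHRF1 pools of clutches 4, 6, 7, 8 and 9 and 4 to 17 counts in WT pools. Its levels did not overlap, as for 8.05% of all tested genes in this direction. They were 4.73 ± 2.34 CPM in hUHRF1 (SD, n = 5) and 0.692 ± 0.21 CPM in WT (SD, n = 6), an L2FC of 2.77 (SE 0.37, edgeR adjusted p = 0.000142). The ID named spi1a, also among the listed factors, was not called. It had 13.1 ± 2.6 CPM in hUHRF1 (SD, n = 5) and 13.7 ± 4.2 CPM in WT (SD, n = 6). The L2FC of spi1a was −0.07 (SE 0.22, edgeR adjusted p = 0.841), with higher levels in hUHRF1 in 2 of 5 pairs.

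The other factor that rose was IRF8, which favours macrophage over neutrophil fate in zebrafish, at 5.29 to 10.4 CPM in hUHRF1 and 0.951 to 2.77 CPM in WT pools (L2FC 2.10, SE 0.29, edgeR adjusted p = 0.000181). The factor that fell was CEBPD, which the liver also expresses in its acute-phase response (L2FC −1.31, SE 0.33, edgeR adjusted p = 0.0092). With libraries scaled by their size alone its L2FC was −0.52 and the call was lost (edgeR adjusted p = 0.139). CEBPA, needed for granulocyte precursors and for hepatocytes alike, had 21.2 ± 9.8 CPM in hUHRF1 (SD, n = 5) and 15.3 ± 8.6 CPM in WT (SD, n = 6), with an L2FC of 0.46 and an edgeR adjusted p of 0.41. With clutch as a replicate block CEBPA was called at 0.58 (SE 0.19, edgeR adjusted p = 0.0399), and with scaling by library size only it was called as well (1.22, edgeR adjusted p = 0.0409). CEBPB, an emergency granulopoiesis factor, had an L2FC of −0.15 (edgeR adjusted p = 0.578).

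Chemotactic proteins of the lect2 family attract neutrophils, and in mammals LECT2 is secreted into the blood mainly by hepatocytes. The ID named LECT2 (ENSDARG00000033227) had 168, 204, 429, 209 and 206 counts in the hUHRF1 pools of clutches 4, 6, 7, 8 and 9 and 701, 967, 1751, 1133, 2833 and 1774 counts in the WT pools of clutches 4 to 9. Every hUHRF1 pool, at 6.20 to 24.4 CPM, lay below every WT pool, at 51.6 to 238.1 CPM, as was the case for 9.02% of all tested genes, while 20.9% were lower in 5 of 5 pairs. It fell by 2.95 on the log2 scale (SE 0.45, edgeR adjusted p = 0.00037), in 5 of 5 pairs, with pair differences of −3.82 to −2.17. The decrease stood beside those of the hepatocyte markers, whose median L2FC was −1.68, and its relation to them was not tested. A second ID of that name (ENSDARG00000090889) had 6 to 40 counts per pool and an L2FC of −0.54 (SE 0.54, edgeR adjusted p = 0.483). Neither ID is taken for lect2l.

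Genes of neutrophil adhesion and granules gave a mixed picture, with 2 of 4 tested genes higher, beside 14.5% of all tested genes. The Fc receptor chain gene fcer1gl, which couples activating receptors of myeloid cells, rose by 2.13 (SE 0.29, edgeR adjusted p = 0.000151) and the surface protease gene adam8a by 1.71 (SE 0.43, edgeR adjusted p = 0.00852). The granule proteoglycan gene srgn, with 34.1 ± 9.4 CPM in hUHRF1 (SD, n = 5) and 23.5 ± 4.5 CPM in WT (SD, n = 6), had an edgeR adjusted p of 0.0592. It was called with clutch as a replicate block (edgeR adjusted p = 0.0265), with scaling by library size only (9.63e-05) and in 3 of the 11 fits without 1 pool. In the pathway of leukotriene B4, a lipid that attracts neutrophils, 2 of 3 tested IDs rose, beside 14.5% of all tested genes called higher. They were LTA4H, the enzyme of the last step (L2FC 2.29, SE 0.24, edgeR adjusted p = 2.64e-05), and the receptor LTB4R (L2FC 2.60, SE 0.82, edgeR adjusted p = 0.0283), which lost its call without the hUHRF1 pool of clutch 9 (0.0739) or the WT pool of clutch 7 (0.0505) and did not pass the count filter without the hUHRF1 pool of clutch 6 or the WT pool of clutch 4, 5, 6 or 8. Counts of LTB4R were 5 to 120 in hUHRF1 and 0 to 17 in WT pools, so it passed the count filter mainly through the hUHRF1 pools. The third tested ID, named ALOX5, had an L2FC of −0.69 (SE 0.41, edgeR adjusted p = 0.23). LTA4H is widely expressed outside blood cells.

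**Figure D3:**
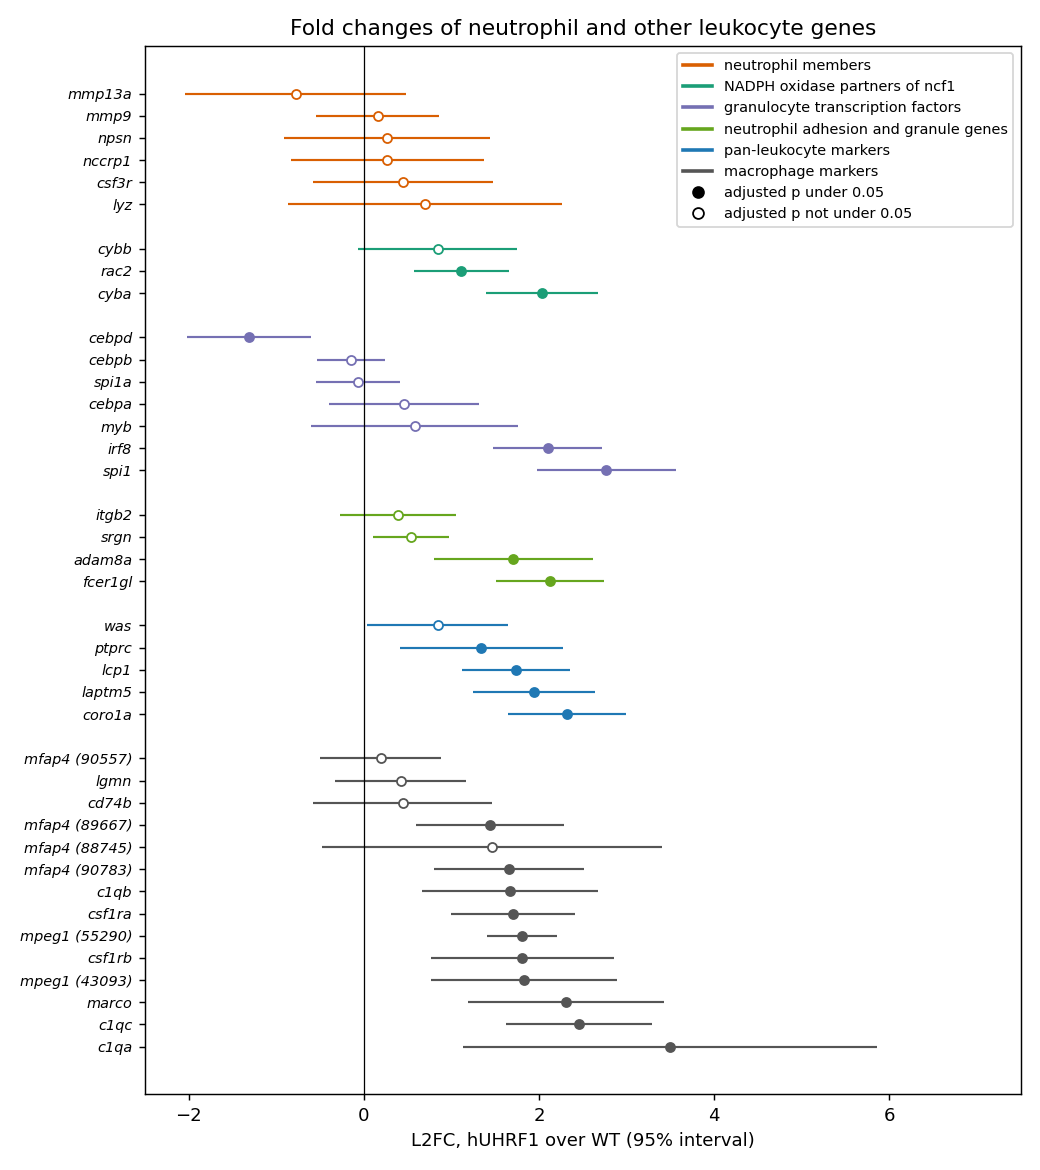
L2FC of tested genes of 6 lists, hUHRF1 over WT, with 95% intervals from edgeR's fit (filled points, adjusted p under 0.05) and the last 5 digits of the gene ID where a name has several IDs. The intervals of all 6 neutrophil genes include 0, whereas 4 of 5 pan-leukocyte and 10 of 14 macrophage IDs are called higher. Among all tested genes 14.5% are called higher.

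The neutrophil genes were set beside markers of other leukocytes measured in the same pools. The summed CPM of the 7 neutrophil genes was 6.76, 11.7, 21.6, 10.1 and 14.0 in the hUHRF1 pools of clutches 4, 6, 7, 8 and 9 and 6.10, 7.95, 14.7, 10.9, 8.57 and 16.2 in the WT pools of clutches 4 to 9. These sums overlapped between conditions, and the sum was higher in hUHRF1 in 3 of 5 pairs. The 5 pan-leukocyte genes, which neutrophils share with other white blood cells, summed to 16.8 to 32.5 CPM in hUHRF1 and 4.63 to 8.66 CPM in WT pools. This sum did not overlap and was higher in 5 of 5 pairs.

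Of the pan-leukocyte genes, CORO1A and LCP1, which organize actin in white blood cells, and the lysosomal gene laptm5 were higher in every hUHRF1 pool than in every WT pool. The same held for 8.05% of all tested genes. CORO1A had 14.4 ± 5.4 CPM in hUHRF1 (SD, n = 5) and 2.90 ± 1.1 CPM in WT (SD, n = 6), an L2FC of 2.32 (SE 0.31, edgeR adjusted p = 0.000158). LCP1 and laptm5 had L2FCs of 1.74 and 1.94 (edgeR adjusted p = 0.000625 and 0.000675). The call of ptprc, which encodes CD45 (L2FC 1.34, edgeR adjusted p = 0.032), was lost without the hUHRF1 pool of clutch 6 (L2FC 0.93, 0.132) and without the WT pool of clutch 4, 6, 7 or 9 (0.0525 to 0.0654). Within clutches 4 to 6 and within clutches 7 to 9, 2 of the 5 genes were called, beside 4.72% and 7.71% of all tested genes higher. WT pools held 8 to 29 counts of LCP1, 6 to 23 of laptm5, 6 to 26 of ptprc and 4 to 11 of WAS. WT pools alone would not have passed these genes through the count filter, which bears on the number called higher.

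Of 18 macrophage marker IDs 14 were tested. Of these, 10 were higher and 0 lower, with a median L2FC of 1.69, beside 14.5% of all tested genes higher. Within clutches 4 to 6 and within clutches 7 to 9, 5 were called, beside 4.72% and 7.71% of all tested genes higher. Without the 2 most exocrine-rich pools of each condition 6 were called, beside 10.3% of all tested genes higher. Their sum without LGMN, a lysosomal protease gene that hepatocytes express as well, was 54.8 to 80.6 CPM in hUHRF1 and 17.4 to 35.8 CPM in WT pools, higher in 5 of 5 pairs. With LGMN the sums were 280.5 to 456.2 CPM in hUHRF1 and 164.2 to 576.4 CPM in WT pools, which overlapped, and were higher in 4 of 5 pairs. The pore-forming macrophage gene MPEG1 (ENSDARG00000055290) had 15.9 ± 2.3 CPM in hUHRF1 (SD, n = 5) and 4.54 ± 0.93 CPM in WT (SD, n = 6), an L2FC of 1.81 (SE 0.19, edgeR adjusted p = 2.44e-05). The macrophage growth factor receptor gene csf1ra and the complement gene c1qc, made by tissue macrophages, rose by 1.70 and 2.46 (edgeR adjusted p = 0.00182 and 0.000452). Counts of c1qc were 19 to 87 in hUHRF1 and 2 to 9 in WT pools, so it passed the count filter only through the hUHRF1 pools. Other called IDs of this list also had few counts in most WT pools and would not have passed through WT pools alone. The counts of called macrophage IDs above therefore lean on the filter. Of 7 lymphocyte markers 0 passed the filter on low counts, and their sum was 1.095 to 2.561 CPM in hUHRF1 and 0.292 to 2.43 CPM in WT pools, higher in 5 of 5 pairs. DESeq2, which has its own filter on low counts, gave adjusted p-values among them only to lck (0.923), RAG1 (0.787) and il7r. It called il7r (adjusted p = 0.000762). The counts of il7r were 22, 28, 17, 15 and 0 in the hUHRF1 pools of clutches 4, 6, 7, 8 and 9. WT pools held 0 to 2 il7r counts.

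**Figure D4:**
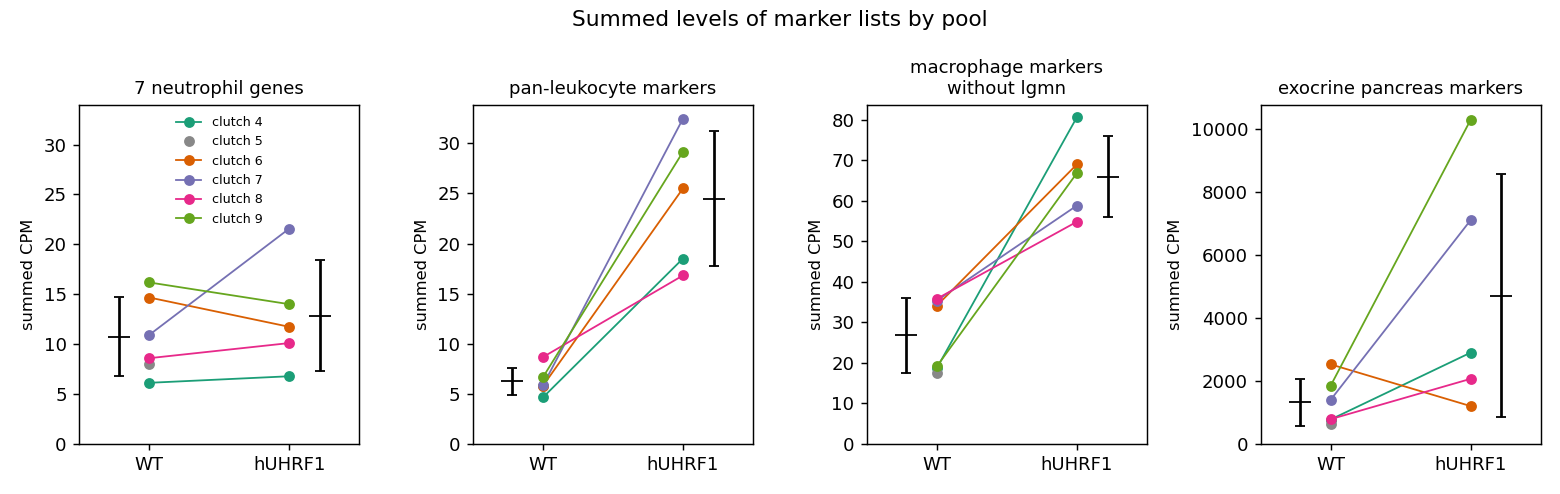
Summed CPM per pool of the 7 neutrophil genes, the pan-leukocyte markers, the macrophage markers without lgmn and the exocrine pancreas markers, with WT on the left, hUHRF1 on the right, lines joining the pools of a clutch and bars for mean and SD (6 WT and 5 hUHRF1 pools). The neutrophil sums overlap between conditions, the pan-leukocyte and macrophage sums do not, and each panel has its own axis.

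The pan-leukocyte sum divided by the neutrophil sum was 1.51 to 2.74 in hUHRF1 and 0.395 to 1.01 in WT pools and did not overlap. The macrophage sum without LGMN, divided by the neutrophil sum, was 2.73 to 11.9 in hUHRF1 and 1.18 to 4.18 in WT pools. This ratio overlapped and was higher in 4 of 5 pairs, and it was not computed with LGMN. These ratios of CPM are not per length, so they compare pools with each other and not the abundance of the cell types. A few genes held much of each sum. CORO1A had means of 14.4 CPM in hUHRF1 and 2.90 CPM in WT, beside pan-leukocyte sums with means of 24.5 and 6.23 CPM. The neutrophil sums had means of 12.8 and 10.7 CPM in hUHRF1 and WT. Of these, nccrp1 held 4.37 and 3.62 CPM, and mmp9 held 3.18 and 2.83 CPM. Whether the change of the neutrophil genes differs from that of the other lists was not tested.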

How the data were processed

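Deposited values were counts per gene, which the authors made by trimming adaptors, aligning RiboZero-depleted paired-end reads to GRCz10 with HISAT2 and counting with HTSeq. The annotation release and strand setting are not given in the sources used here, so overlapping and antisense genes may share reads. Labels describe an incross of carriers on a single sequencer, whereas the methods describe an outcross and a further sequencer.

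Samples were grouped by their labels. The tools were DESeq2 1.42.0, limma 3.58.1 and edgeR 4.0.16, under R 4.3.3. edgeR's filterByExpr (minimum count 10, minimum total count 15) kept 15838 of 32105 IDs. This filter can be passed through 1 condition alone, so IDs with few WT counts were tested only where hUHRF1 counts were higher. That bears on the list counts of IDs called higher. After TMM scaling, conditions were compared by edgeR's quasi-likelihood test, with p-values adjusted over every tested gene (Benjamini-Hochberg) and a threshold of 0.05. Log2 CPM used a prior count of 2. The procedure was tested on simulated data. The members and lists were chosen with earlier results of these data known. The genes named are all members, up to 3 genes of each list with the smallest adjusted p-values, direct partners of members and the 5 genes most like lyz. Likeness to mpx could not be computed. Outside this rule, ptprc, WAS, spi1a, cxcl8b.1, CXCR4, lck, RAG1 and il7r were chosen after their values were seen. List symbols without an exact name were matched without the suffix of duplicated genes.

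Clutch numbers pair the pools, since the labels give a shared clutch. Deviations of paired pools from their condition means had correlations of 0.206 to 0.481 over genes. Alternatives were clutch as block, other scalings and filters, DESeq2, groups of clutches, and each pool left out. Sequences were not used here. One gene of the partner lists is not reported here, although counts over lists and all genes include it.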

Additional observations from a re-analysis of the deposited data

Results flagged for a closer look

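In 12 of 130 groups of pools looked at (65 genes in each condition), 1 pool lay far from the others of its condition by Dixon's test, which by chance flags about 1 in 20 groups of normally distributed values. CPM from few counts are not so distributed, so 12 of 130 cannot be set against that rate. Among the neutrophil genes only ncf1 was concerned, in the pools of clutch 6. The hUHRF1 pool held 1.67 CPM, with the others at 0.169 to 0.320 CPM, and the WT pool held 1.54 CPM, with the others at 0 to 0.555 CPM. The same hUHRF1 pool held 4.22 CPM of cybb, the catalytic subunit of the oxidase, with the others at 1.36 to 1.82 CPM.

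For the ligands of csf3r, csf3a stood at 3.02 CPM in the WT pool of clutch 7 (others 0.460 to 0.809 CPM). The second ligand gene, csf3b, stood at 0.210 CPM in the hUHRF1 pool of clutch 4 (all others 0) and at 0.504 CPM in the WT pool of clutch 8 (others 0 to 0.159 CPM), on 4 and 6 counts. With all other hUHRF1 pools at 0, any csf3b count in that pool would have been flagged. SPI1 was low at 0.294 CPM in the WT pool of clutch 4 (others 0.673 to 0.872 CPM).

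In the WT pool of clutch 5, CXCL12 stood at 4.40 CPM (others 1.26 to 2.06 CPM) and THBS1, a thrombocyte marker (ENSDARG00000010785), at 17.9 CPM (others 3.47 to 7.23 CPM). The macrophage gene csf1ra was at 3.45 CPM in the WT pool of clutch 8 (others 1.27 to 2.06 CPM). In the hUHRF1 pool of clutch 9, MMP14 (ENSDARG00000008388) was high at 19.8 CPM (others 14.3 to 15.9 CPM) and the protease inhibitor gene TIMP2 (ENSDARG00000075261) low at 2.36 CPM (others 5.20 to 6.36 CPM).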

How the results depend on the processing

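No neutrophil gene was called under any alternative except scaling by library size only, which called 1, mmp9 (L2FC 0.92, edgeR adjusted p = 0.0395). That scaling moved the median L2FC of all tested genes from 0.05 to 0.83 and that of the 6 neutrophil genes from 0.27 to 0.99, and turned mmp13a to 0.001. With clutch as a replicate block 0 neutrophil genes were called, at L2FCs of 0.68 for lyz, 0.28 for mmp9, −0.40 for mmp13a, 0.21 for csf3r, 0.05 for npsn and 0.04 for nccrp1. The block called 5566 genes in all, against 4612 without it, and of the genes named in the text it changed the calls of CEBPA, srgn and cldni. In clutches 4 to 6 alone the direction turned for mmp9 (−0.419), npsn (−0.448) and nccrp1 (−0.303), without the hUHRF1 pool of clutch 7 for npsn (−0.144) and nccrp1 (−0.155), and without the 2 most exocrine-rich pools of each condition for nccrp1 (−0.451), and the cause was not tested.

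With each pool left out in turn 0 neutrophil genes were called in 11 of 11 fits. The L2FC then ranged from 0.352 to 1.194 for lyz, 0.013 to 0.333 for mmp9, −1.059 to −0.498 for mmp13a, 0.24 to 0.621 for csf3r, −0.144 to 0.542 for npsn and −0.155 to 0.511 for nccrp1, and the difference of ncf1 from 0.066 to 0.987. Over all partner and marker lists 47 IDs were called, higher and lower together, beside 29.1% of all tested genes. They include 8 hepatocyte markers called lower and 8 exocrine IDs called higher. These are counts and not shares, and the number of list IDs tested changes between fits, so the counts below are not directly comparable. With 1 pool left out it was 37 to 48 IDs, beside 24.4% to 29% of all genes. Without those exocrine-rich pools it was 40 IDs, beside 21.3% of all genes. In clutches 4 to 6 alone 22 IDs were called, beside 10.4% of all genes, and in clutches 7 to 9 alone 33, beside 16.4%. Each of these groups has fewer pools. The filter of 10 counts in every pool left only mmp9 and nccrp1 of the set to test. Between 0 and 153 counts per gene and pool limit the precision of every neutrophil value.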

Other observations

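The genes whose levels followed lyz most closely over the 11 pools, among 15832 tested genes and after subtracting the mean of each condition from log2 CPM, were TAF6, ZWILCH, VMP1, cdca7b and TXNDC5. Pearson's r was 0.94 for TAF6, a general transcription factor subunit, 0.93 for the kinetochore gene ZWILCH, 0.92 for VMP1, 0.90 for cdca7b and 0.90 for TXNDC5. The 2 pools farthest from the median were then left out, which gave 0.87, 0.87, 0.81, 0.80 and 0.77. The 5 genes were picked as the highest of 15832 values in the same pools, so these second values are no independent check. Pools of a clutch share parents and the pools differ in depth and exocrine RNA, so the 11 points are not independent. None of these 5 genes is on a leukocyte list.

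Erythroid markers, measured in the same pools as another blood lineage, summed to 129.4 to 154.7 CPM in hUHRF1 and 107.6 to 432.1 CPM in WT pools. Of 5 tested IDs 1 was lower, beside 14.6% of all tested genes. It was the globin gene hbae3 (L2FC −0.98, edgeR adjusted p = 0.0216, and 0.0523 without the hUHRF1 pool of clutch 9). Scaling by library size only gave hbae3 an L2FC of −0.18 and ended the call (edgeR adjusted p = 0.596). Thrombocyte markers summed to 10.7 to 28.5 CPM in hUHRF1 and 7.68 to 22.4 CPM in WT pools. Of 3 tested IDs 1 was higher, beside 14.5% of all tested genes. It was an ID named THBS1 (ENSDARG00000103775, L2FC 1.8, edgeR adjusted p = 0.003). The other ID named THBS1 (ENSDARG00000010785) had an L2FC of −0.02, and itga2b had −0.26.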
